A study of Mus musculus with 45 samples.

Results

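The miR-15/16 and miR-322 family was followed in alveolar macrophages (AM) of mice after filtered air (FA) or ozone (O3). Its 6 members were fixed by a list of names, which applies no threshold to measured values, though the list was drawn up with earlier results of these data known: mmu-mir-15a-5p, mmu-mir-15b-5p, mmu-mir-16-5p, mmu-mir-16-2-3p, mmu-mir-195a-5p and mmu-mir-322-5p, of 476 miRNAs listed in all. miR-15a-5p, miR-15b-5p and miR-16-5p were listed in all 6 tables of values (1 table for each genotype and sex), miR-322-5p in 5, and miR-195a-5p and miR-16-2-3p in 3 each, which gave 29 pairs of a member and a table. The mice, labelled C57BL/6, were aged 12 weeks and breathed FA or O3 at 2 ppm for 3 h before AM were collected by lavage after 18 h of recovery. SP-A2 mice carried the human surfactant protein A variant SP-A2 (1A0), co-ex mice carried human SP-A1 and SP-A2 (6A2/1A0), and KO mice had no SP-A. The humanized mice were made on a C57BL/6J background without mouse SP-A, so all 3 genotypes lacked mouse SP-A, and wild-type mice were not analysed here. The promoter that drives the human genes is not given in the sources used here. For each exposure there were 4 mice of every genotype and sex, other than SP-A2 males (3 and 3) and co-ex males (4 after FA, 3 after O3), which made 45 mice (21 males and 24 females). Each mouse gave 1 library and counts as 1 replicate.

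A miRNA guides Argonaute to messenger RNAs that pair with its seed, the short run of bases near the 5′ end, so miRNAs with the same seed can bind many of the same targets. The miR-15/16 group is known for holding back the cell cycle and cell survival, with the messenger RNAs of BCL2 and of the D and E cyclins among its well-studied targets, and its loss in chronic lymphocytic leukaemia was among the earliest links between miRNAs and cancer. miR-195a and miR-497a come from a shared locus, and miR-322 (the mouse counterpart of human miR-424) is made with miR-503 and miR-351 and is known from muscle, vessel and myeloid differentiation.

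The mature sequences are shown because the seed is what joins these members and because small differences outside it decide how well their reads can be told apart. They are taken from RefSeq (GRCm38.p6), written 5′ to 3′, and the capitals mark the seed, bases 2 to 8. miR-497a-5p and miR-503-5p, which share loci with members, follow for comparison.
mmu-mir-15a-5p: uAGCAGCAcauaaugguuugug
mmu-mir-15b-5p: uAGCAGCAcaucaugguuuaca
mmu-mir-16-5p: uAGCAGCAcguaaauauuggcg
mmu-mir-195a-5p: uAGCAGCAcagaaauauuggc
mmu-mir-322-5p: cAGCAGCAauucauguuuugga
mmu-mir-16-2-3p: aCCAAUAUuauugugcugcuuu
mmu-mir-497a-5p: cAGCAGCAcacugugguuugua
mmu-mir-503-5p: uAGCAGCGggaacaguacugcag
Of the 6 members, 5 held the seed AGCAGCA, and miR-16-2-3p, which is the other arm of the Mir16-2 hairpin, held CCAAUAU. miR-497a-5p shared the seed with those 5, so 6 of the 407 listed miRNAs with a sequence in the table held it (1.47%). miR-503-5p matched it at bases 2 to 7 and not at base 8. Outside the seed the members parted: miR-15a-5p and miR-15b-5p were identical at 18 of 22 positions, and differed by A12C, G20A, U21C and G22A (positions counted from 1 at the 5′ end, the base of miR-15a-5p first). miR-16-5p and miR-195a-5p were identical at 19 of 21 positions, and differed only by G10A and U11G. Reads of this pair could be split by the counting of the files, whose aligner and allowed mismatches are not given in the sources used here, so the values of miR-195a-5p, which were far lower than those of miR-16-5p, are uncertain to that degree.

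The hairpins lie at 4 places in the genome (GRCm38). Mir15b (chr3:69009772-69009835, plus strand) and Mir16-2 (chr3:69009902-69009996) lie 66 bases apart in an intron of the protein-coding gene Smc4. Mir15a (chr14:61632027-61632110, minus strand) and Mir16-1 (chr14:61631880-61631972) lie 54 bases apart within the non-coding gene Dleu2, the former in an intron and the latter in an exon or an intron by transcript. Mir195a (chr11:70235042-70235135, plus strand) lies 241 bases from Mir497, and Mir322 (chrX:53054255-53054349, minus strand) lies 200 bases from Mir503, with no other annotated gene over either hairpin. miR-16-5p has the same sequence from Mir16-1 and Mir16-2, so its reads cannot be told apart by locus.

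The reads on listed miRNAs were 137965 to 2884013 per mouse, with a median of 766213. Of the macrophage and haematopoietic markers, miR-223-3p, miR-146b-5p and miR-21a-5p were above 0 in 45 of 45 mice, miR-142a-3p was listed at 0 in 8 and miR-155-5p in 4, and the summed share of the 7 markers ran from 0.986% of a mouse's listed reads to 24.5%. Erythroid markers (miR-451a, miR-486b-5p and the miR-144 arms) took 0.136% to 37.0%, and 3 mice were above 30%: FA replicate 3 of the KO females, FA replicate 3 of the co-ex males and O3 replicate 2 of the co-ex males. These 3 mice also had the 3 lowest macrophage marker shares of all 45, and results of the members that turn on them are given with and without them. Epithelial markers (the miR-200 and miR-183 groups and miR-375-3p) were listed in every table, 7 to 9 of them, of which 6 to 8 a table had a higher mean log2 value after O3 and 0 were called by limma. The neutrophil markers and the lymphoid miR-150 arms (1 or 2 of each a table) had 0 called. Of the 7 macrophage and haematopoietic markers, 3 and 0 had higher means after O3 in the SP-A2 males and females. The counts were 5 and 3 in the co-ex and 1 and 6 in the KO males and females. limma called 1 lower in each SP-A2 table and 0 elsewhere. Erythroid markers were higher in 0 of 4, 4 of 4 and 3 of 4 in the SP-A2, co-ex and KO males. In the females they were higher in 3 of 4, 2 of 2 and 0 of 3, with 0 called in any table. RNA was measured in bulk, so fewer cells of a type and less RNA per cell cannot be told apart.

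miR-16-5p was the most abundant member in 35 of 45 mice and miR-15b-5p in the other 10, while miR-15a-5p was below miR-15b-5p in every mouse. The 6 miRNAs with the shared seed (the members without miR-16-2-3p, and miR-497a-5p) together took 0.306% to 3.21% of the listed reads, with a median of 0.931%. All are 21 or 22 bases long, so reads per member needed no correction for length. As shares of the reads of these miRNAs with the shared seed, miR-16-5p made up 20.8% to 87.0% (median 65.8%), miR-15b-5p 7.98% to 79.1% (median 29.6%) and miR-15a-5p 0% to 10.7% (median 3.08%). Ranked by the mean normalized value in a table, miR-16-5p stood at 14 of 448 miRNAs in the SP-A2 males and at 36 of 234 in the co-ex males, where miR-15b-5p ranked above it at 27 of 234. The low members were miR-322-5p (153 of 448 in the SP-A2 males), miR-195a-5p (186 of 448) and miR-16-2-3p (284 of 448).

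**Figure D1:**
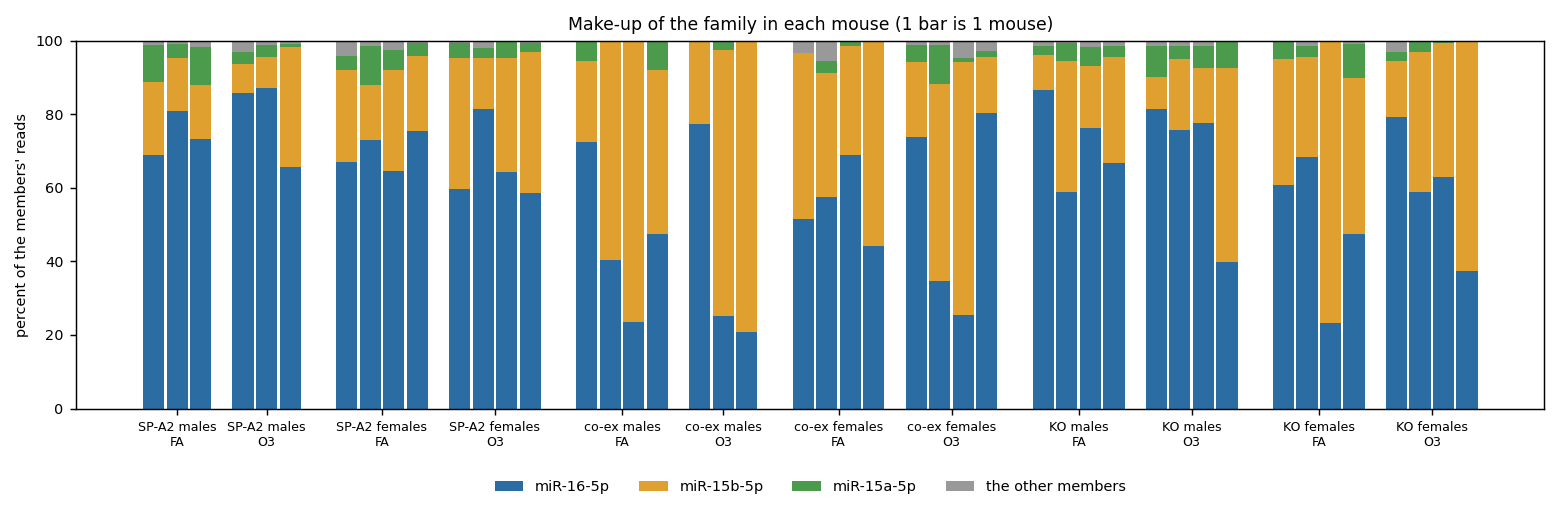
Share of miR-16-5p, miR-15b-5p, miR-15a-5p and the remaining low miRNAs of the family in the family's reads (percent, y axis). Each of the 45 mice has 1 bar, grouped by genotype, sex and exposure. miR-16-5p was the largest part in 35 mice and miR-15b-5p in 10, and the share of miR-16-5p ran from 20.8% to 87.0%.

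The first question was whether O3 changed the members within a genotype and sex. The values are normalized within each table: reads over a scaling factor of the mouse, as deposited. O3 was compared with FA on log2(normalized value + 1) with limma over all miRNAs of a table, and called at an adjusted p below 0.1 (Benjamini-Hochberg). The added 1 shrinks fold changes between low values. With mice at or near 0, a mean log2 difference can also be larger than the ratio of group means gives, or have the other sign. For miR-322-5p in the KO males it was -4.34, with a ratio of means (O3 over FA) of 0.142. For miR-16-2-3p in the SP-A2 females it was 0.18, with a ratio of 0.398. None of the 29 pairs of a member and a table was called by limma. At an unadjusted p under 0.05, 2 of the 29 passed, miR-195a-5p in the co-ex females and miR-322-5p in the KO males, and DESeq2 on recovered reads called 1, miR-195a-5p in the SP-A2 males. The share called among all miRNAs by limma was 0.670% of 448 in the SP-A2 males, 1.07% of 373 in the SP-A2 females, 0.00% of 234 in the co-ex males, 1.38% of 290 in the co-ex females, 5.18% of 328 in the KO males and 0.00% of 287 in the KO females. At an unadjusted p under 0.05 the shares were 17.6% and 12.3% in the SP-A2 males and females, 3.42% and 10.3% in the co-ex males and females and 13.7% and 7.67% in the KO males and females, and DESeq2 called 12.1% and 6.97%, 2.14% and 4.83%, and 12.5% and 0.697% in the same order. The members' counts are read against these shares, and do not stand above them. The FA and O3 mice of a table overlapped for every member, in 29 of 29 pairs. How many of all miRNAs overlapped in this way is not given here. The median log2 difference over the members was -0.08 in the SP-A2 males (all miRNAs 0.17), -0.38 in the SP-A2 females (0.18), -0.47 in the co-ex males (0.64), 0.72 in the co-ex females (0.31), -0.21 in the KO males (-0.29) and -0.55 in the KO females (0.45).

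**Figure D2:**
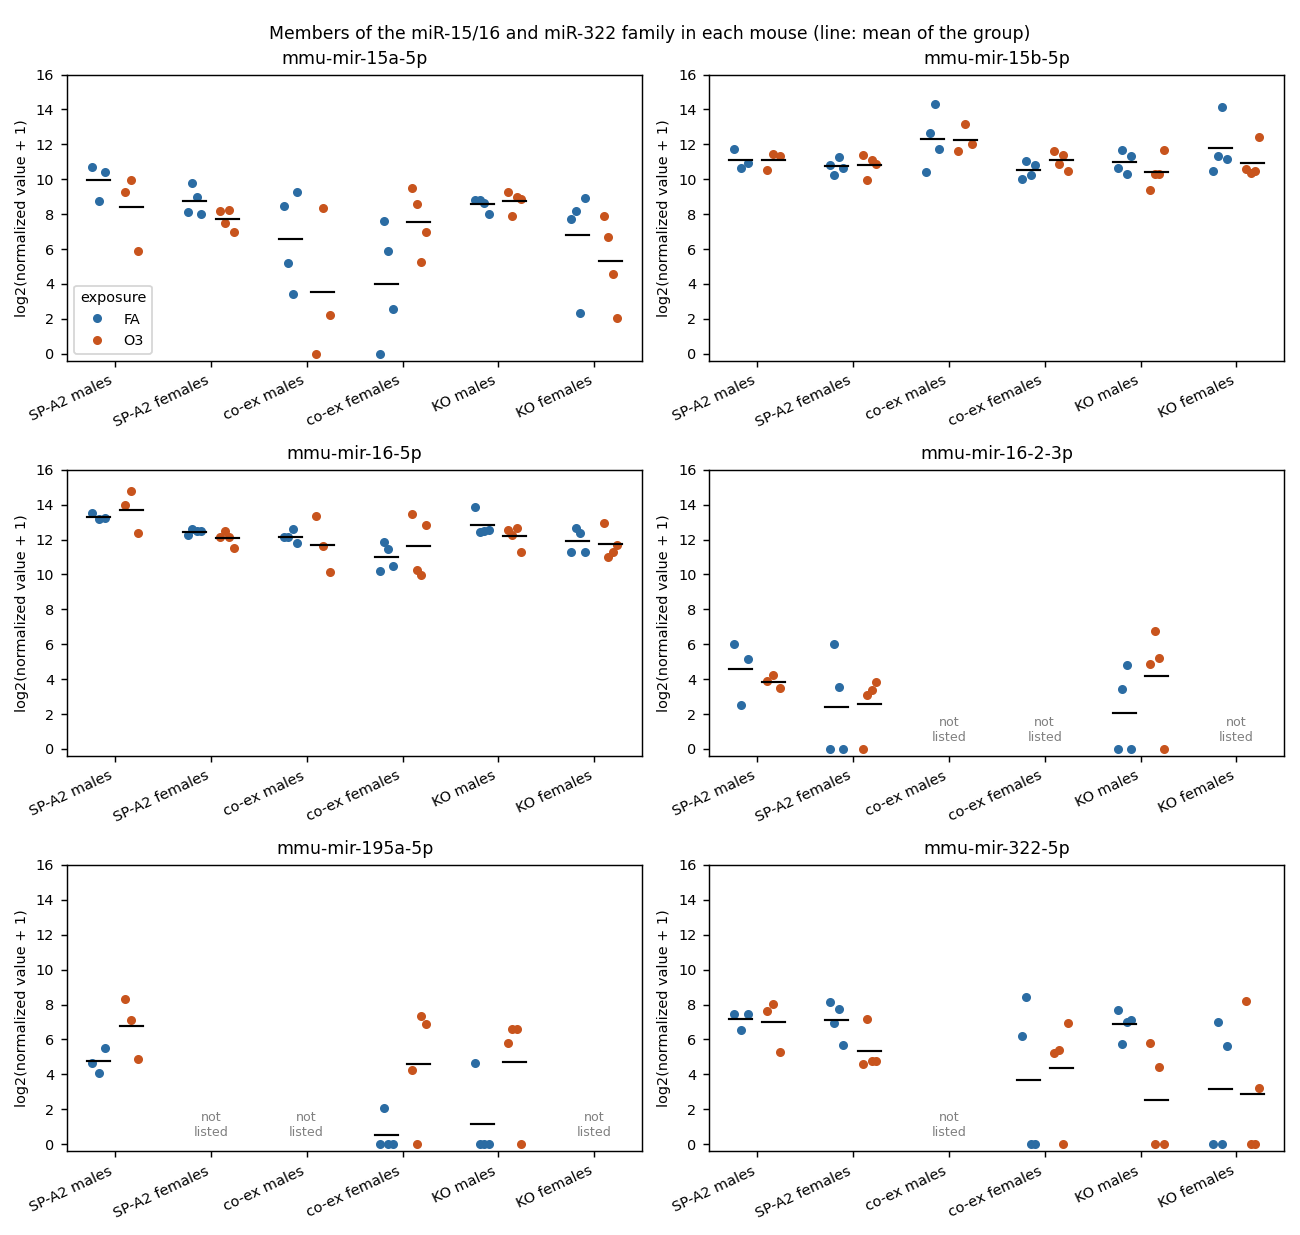
Normalized value of each member in every mouse, as log2(value + 1) (y axis), by table (x axis), with FA in blue, O3 in orange and the mean of each group as a line. FA and O3 mice overlapped in each of the 29 pairs of a member and a table; miR-15b-5p and miR-16-5p were above 0 in all 45 mice, while miR-16-2-3p, miR-195a-5p and miR-322-5p were at 0 in several.

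A test that averaged the O3 minus FA differences over tables, with 1 mean for each of the 12 groups, used all mice at once. Among the 206 miRNAs listed in all tables it called 25.7% over all groups, 9.71% over males, 12.1% over females, 0.485% over SP-A2, 19.9% over co-ex and 7.28% over KO mice. miR-15a-5p, miR-15b-5p and miR-16-5p passed in 0 of these 18 tests by limma, also at an unadjusted p under 0.05, and in 0 by edgeR and DESeq2, while 53 of the 206 miRNAs were called over all groups. The 3 members missing from some tables were averaged over the tables that list them, a fit added after the data were seen. There the shares called among all miRNAs were 14.7% for the tables of miR-195a-5p, 21.4% for those of miR-322-5p and 12.3% for those of miR-16-2-3p, and 1 of the 3 members, miR-195a-5p, passed. A table lists a miRNA only if it is above 0 in 3 or 4 mice, so a low member is averaged only over tables in which enough mice had it, and a pass there is not independent of that filter.

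miR-195a-5p, which stands beside miR-497a on chromosome 11, had a higher mean after O3 in each of its 3 tables, of which 2 list it mainly through their O3 mice. In the SP-A2 males its normalized value was 24.4, 15.6 and 44.6 after FA and 314, 137 and 28.3 after O3. It was 0, 3.26, 0 and 0 after FA and 18.0, 0, 161 and 116 after O3 in the co-ex females. The KO males had 24.5, 0, 0 and 0 after FA and 53.7, 95.2, 94.3 and 0 after O3. Of the 11 O3 mice of these tables, 8 were above every FA mouse of their own table, and the listed value was 0 in 6 of 11 FA mice and 2 of 11 O3 mice. In the co-ex females and in the KO males 1 of 4 FA mice and 3 of 4 O3 mice were above 0, which is the smallest number that lists a miRNA there, so the direction in these 2 tables is tied to the listing and carries no weight of its own. Within the tables the log2 difference was 2.02 (SE 0.97, adjusted p = 0.313) in the SP-A2 males, 4.09 (SE 1.82, adjusted p = 0.363) in the co-ex females and 3.57 (SE 1.89, adjusted p = 0.380) in the KO males, none of them called by limma. All 6 SP-A2 males were above 0, so there the listing did not depend on the exposure. The mean difference over the 3 tables (22 mice) was 3.22 (SE 1.02, 95% confidence interval 1.10 to 5.34, adjusted p = 0.0431) on the log2 scale, given as a description for that reason. A listed 0 is 0 recovered reads. As a limit on what a 0 may leave unseen, 3 reads were taken, a normalized value of 1.11 to 11.5 in the 8 mice at 0.

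Markers of mesenchymal and epithelial cells mostly had higher group means after O3 in the tables of miR-195a-5p, as in the other tables. The match is of group means and was not tested mouse by mouse. Each listed mesenchymal marker (miR-143-3p, miR-145a, miR-199 and miR-214 arms) had a higher mean log2 value after O3 in every table: 8 of 8 in the SP-A2 males, 4 of 4 in the co-ex females and 4 of 4 in the KO males, of which 0, 1 and 2 were called by limma. The median log2 difference was 1.86, 5.36 and 3.25 in these 3 tables, beside 0.17, 0.31 and -0.29 over all miRNAs. Their summed share of the listed reads was 0.163 to 0.305% after FA and 0.536 to 1.21% after O3 in the SP-A2 males, 0.0121 to 0.110% and 0.188 to 0.758% in the co-ex females, and 0.0172 to 0.167% and 0.437 to 0.781% in the KO males. The defining marker miR-143-3p was above 0 in 45 of 45 mice. Of the epithelial markers, 8 of 9 were higher after O3 in the SP-A2 males, 7 of 7 in the co-ex females and 6 of 8 in the KO males, with 0 called by limma and medians of 0.68, 3.35 and 1.11. Their share was 0.707 to 1.04% after FA and 1.01 to 1.48% after O3 in the SP-A2 males, 0.108 to 0.642% and 0.660 to 1.64% in the co-ex females, and 0.328 to 1.000% and 0.755 to 2.19% in the KO males. The endothelial miR-126a arms were listed in the SP-A2 males (2 of 2 higher after O3, 1 called by limma), the SP-A2 females (1 of 1 higher, not called) and the KO males (1 of 1 higher, not called). Low markers pass the same listing filter. The part of such cells in the values of miR-195a-5p was not tested.

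miR-497a-5p, the neighbour of miR-195a-5p with the same seed, was listed in 3 tables. In the SP-A2 males it was 13.9, 0 and 2.35 after FA and 42.6, 24.8 and 15.1 after O3, with no overlap between the exposures. In the co-ex females it was 0, 9.77, 0 and 0 after FA and 130.2, 0, 25.1 and 28.8 after O3, with overlap, and 1 of 4 FA mice and 3 of 4 O3 mice were above 0, the smallest number that lists it. The log2 difference was 2.83 (SE 1.26, adjusted p = 0.276) in the SP-A2 males, 3.30 (SE 1.78, adjusted p = 0.501) in the co-ex females and 0.34 (SE 1.41, adjusted p = 0.939) in the SP-A2 females, and none was called by limma.

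**Figure D3:**
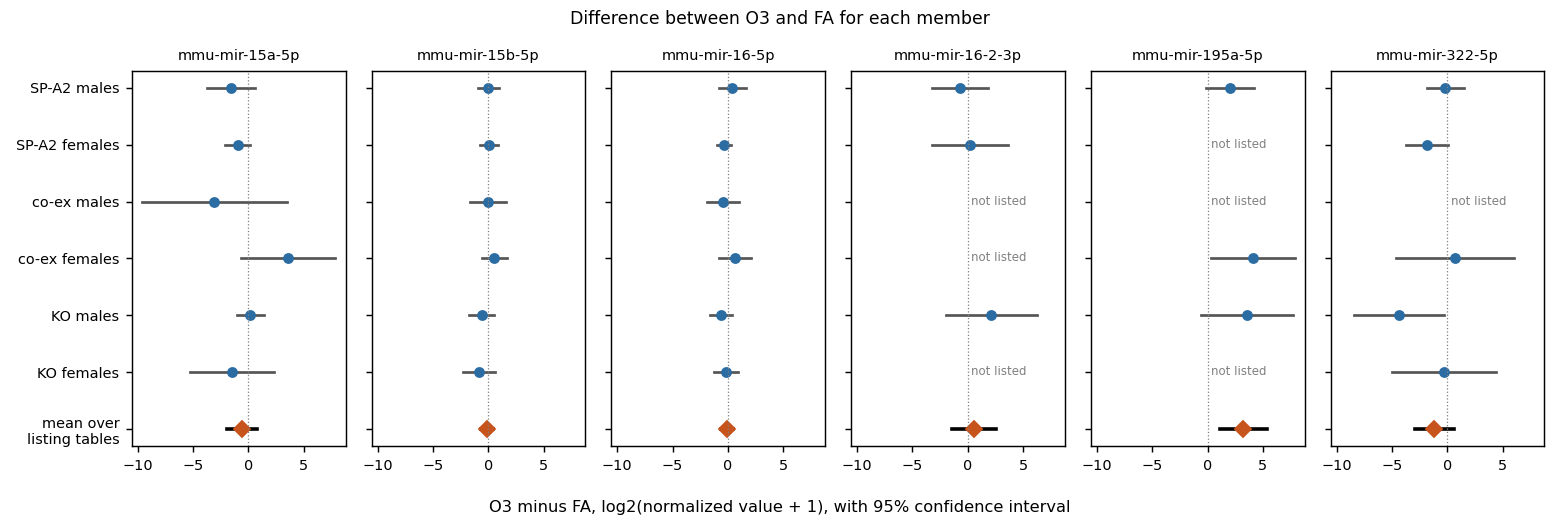
Difference between O3 and FA in log2(normalized value + 1) (x axis) for each member in each table (rows), with the 95% confidence interval of the limma fit, and the mean over the tables that list the member in the bottom row (diamond). In the bottom row the interval of miR-195a-5p ran from 1.10 to 5.34, over tables of which 2 list it with 1 FA mouse and 3 O3 mice above 0.

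miR-15a-5p, the partner of miR-16-1 in Dleu2, varied widely between mice of the same group: the SD of log2(normalized value + 1) within groups was 2.26, against 0.93 for miR-15b-5p and 0.91 for miR-16-5p. In the SP-A2 males its normalized value was 1687, 426 and 1377 after FA and 615, 1004 and 59.4 after O3. The SP-A2 females had 274, 896, 498 and 259.8 after FA and 293, 182, 306 and 126 after O3. In both sexes of SP-A2 mice the means after O3 were lower, but the exposures overlapped and the log2 difference was -1.58 (SE 0.95, adjusted p = 0.442) in males and -0.99 (SE 0.52, adjusted p = 0.471) in females. The co-ex males had 349, 36.2, 9.86 and 606 after FA and 0, 323 and 3.69 after O3, and the co-ex females 0, 195, 57.4 and 4.97 after FA and 715, 377, 37.6 and 127 after O3. Co-ex males thus ranged from under 10 to over 300 within either exposure, and the difference was -3.07 (SE 3.07, adjusted p = 0.941) in males, -6.52 (adjusted p = 0.821) without the 2 of them above 30% erythroid reads, and 3.56 (SE 2.02, adjusted p = 0.501) in females. In the KO males the values were 454, 451, 404 and 256 after FA and 624, 239, 504 and 458 after O3, with a difference of 0.18 (SE 0.55, adjusted p = 0.880) that turned negative with median-ratio rescaling and in edgeR and DESeq2. The KO females had 213, 285, 3.98 and 484 after FA and 240.3, 104, 22.4 and 3.09 after O3, a difference of -1.48 (SE 1.80, adjusted p = 0.793), or -2.97 (adjusted p = 0.770) without FA replicate 3, the mouse above 30%. Over all groups the mean difference of miR-15a-5p was -0.56 (SE 0.66, 95% confidence interval -1.90 to 0.78, adjusted p = 0.654). Without the 3 mice above 30% erythroid reads, chosen after the data were seen, it was -1.39 (adjusted p = 0.0739), which passed the threshold in a fit that called 25.7% of all miRNAs, and the call then rests on co-ex males with 2 O3 mice, at 0 and 3.69.

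miR-15b-5p, the Smc4 partner of Mir16-2, was above 650 in every mouse and had single mice far above the rest. In the KO females it was 1432, 2547, 17943 and 2248 after FA and 1525, 1301, 1434 and 5456 after O3. The co-ex males had 1366, 6547, 20626 and 3385 after FA and 3104, 9051 and 4208 after O3. The highest mouse in the first of these groups and in both co-ex male groups was a mouse with over 30% erythroid reads. In the other 4 tables the values ran from 658 to 3415 over both exposures. The log2 difference between O3 and FA lay between -0.81 (KO females) and 0.55 (co-ex females) in the 6 tables. The low end rests on FA replicate 3 of the KO females: without it the difference there was -0.02 (adjusted p = 0.992). In the co-ex males it was -0.03 (SE 0.77, adjusted p = 0.987), and 0.21 (adjusted p = 0.980) without the 2 mice above 30%. The mean over all groups was -0.13 (SE 0.27, 95% confidence interval -0.67 to 0.42, adjusted p = 0.822).

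miR-16-5p, which can come from either hairpin pair, was the most abundant member. After FA it was 11789.9, 9103 and 9690.2 in the SP-A2 males and after O3 15925, 28389.6 and 5263. The co-ex females had 1182, 3682, 2829 and 1423 after FA and 11382, 1229, 1002 and 7363 after O3. In both tables the O3 mice spread on each side of the FA mice. The KO males had 15086, 5449, 5818 and 5974 after FA and 6052, 4997, 6504 and 2504 after O3, the KO females 2507 to 6372 and 2014 to 7888, the SP-A2 females 4902 to 6107 and 2871 to 5697, and the co-ex males 3587 to 6325 and 1108 to 10533. Across tables the log2 difference lay between -0.63 (KO males) and 0.64 (co-ex females), and the mean over all groups was -0.11 (SE 0.26, 95% confidence interval -0.64 to 0.42, adjusted p = 0.857). In the SP-A2 males 1 mouse decided the value: without O3 replicate 3 the difference was 1.07 (adjusted p = 0.0845) in place of 0.40. The same mouse was the lowest of the SP-A2 males for miR-15a-5p and miR-322-5p and the lowest of the O3 mice for miR-195a-5p, for which the difference without it was 2.96 (adjusted p = 0.0839). Macrophage markers took 7.99% of listed reads in this mouse, and 18.9% and 22.0% in the other O3 mice. They took 22.8 to 24.5% in the FA mice of that table. The part of these markers in the values was not tested. How many of all miRNAs were called without this mouse is not given here.

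miR-16-2-3p, the member with another seed, marks the Mir16-2 hairpin because its sequence differs from the 3p arm of Mir16-1. It was low in the 3 tables that list it, from 0 to 106, and was at 0 in 4 of 11 FA mice and 2 of 11 O3 mice. The KO males had 0, 9.69, 27.2 and 0 after FA and 27.8, 106, 35.4 and 0 after O3. The log2 difference was 2.14 (SE 1.89, adjusted p = 0.581) there, -0.69 (SE 1.15, adjusted p = 0.825) in the SP-A2 males and 0.18 (SE 1.57, adjusted p = 0.975) in the SP-A2 females. Over the 3 tables the mean was 0.54 (SE 0.96, 95% confidence interval -1.45 to 2.54, adjusted p = 0.765), and the sign turned in edgeR and DESeq2 on recovered reads (-0.38 and -0.26).

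miR-322-5p, encoded on the X chromosome, had a lower mean log2 value after O3 in 4 of its 5 tables, and a lower mean value in 3. In the KO males it was 205, 52.1, 128 and 136 after FA and 53.7, 0, 20.2 and 0 after O3. Only O3 replicate 1 of that table came above the lowest FA mouse, and the 4 FA mice alone were enough to list miR-322-5p there. The log2 difference was -4.34 (SE 1.86, adjusted p = 0.310), with an unadjusted limma p of 0.0379. Median reads on listed miRNAs were 1083876 after FA and 457456 after O3 in that table. The O3 mice at 0, replicates 2 and 4, had 402405 and 180625, the lowest of the table. Over the 9 mice with miR-322-5p at 0, in all its tables, 3 reads were a normalized value of 2.13 to 11.5. The part of read depth was not tested. The SP-A2 females had 287, 121, 216 and 50.2 after FA and 23.0, 142, 26.5 and 26.1 after O3, where 3 of 4 O3 mice were below every FA mouse and the difference was -1.81 (SE 0.87, adjusted p = 0.450). In the same order of O3 mice, macrophage markers took 2.98, 15.85, 4.63 and 6.36% of listed reads, and 10.3 to 18.1% after FA. Erythroid markers took 14.3, 0.360, 12.2 and 5.08%, and 0.767 to 2.17% after FA. The part of these markers in the difference was not tested. In the SP-A2 males the values were 174, 91.4 and 177 after FA and 195, 261 and 37.7 after O3, a difference of -0.18 (SE 0.76, adjusted p = 0.935). The co-ex females had 73.9, 345, 0 and 0 after FA and 35.9, 40.5, 0 and 123 after O3, and the KO females 0, 128, 0 and 47.7 after FA and 299, 0, 0 and 8.24 after O3. Each of these groups held mice at 0 beside mice above 100, and neither table was called. Without FA replicate 3 the KO females differed by -1.35 (adjusted p = 0.885). The full log2 difference was 0.72 (SE 2.55, adjusted p = 0.940) in the co-ex females and -0.29 (SE 2.23, adjusted p = 0.958) in the KO females, and both changed sign in edgeR and DESeq2, as did that of the SP-A2 males. Over the 5 tables (38 mice) the mean difference was -1.18 (SE 0.87, 95% confidence interval -2.96 to 0.60, adjusted p = 0.418).

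The miRNAs made from the same loci and those with a related seed gave no call in any table. Among the same-locus miRNAs (other arms, miR-497a, miR-503, miR-351, miR-542 and miR-450), 0 of 13 passed in the SP-A2 males, 0 of 11 in the SP-A2 females, 0 of 3 in the co-ex males, 0 of 7 in the co-ex females, 0 of 9 in the KO males and 0 of 5 in the KO females by limma. At an unadjusted p under 0.05, 4 of these 48 passed and 0 of the 17 of the related seed (miR-503-5p, miR-103-3p and miR-107-3p). The 4 were 2 of 13 in the SP-A2 males and 2 of 11 in the SP-A2 females, beside 17.6% and 12.3% of all miRNAs there, namely miR-16-1-3p and miR-351-5p in the SP-A2 females, with log2 differences of 3.06 (SE 1.21, adjusted p = 0.298) and 1.07 (SE 0.38, adjusted p = 0.242), and miR-450a-1-3p (3.60, SE 1.07, adjusted p = 0.148) and miR-497a-5p in the SP-A2 males. Of these, miR-450a-1-3p had no read in any FA mouse of its table and miR-16-1-3p had reads in 1 of 4, so both were listed through their O3 mice and their differences are descriptions. miR-503-5p, next to miR-322 on the X chromosome, differed by -3.13 (SE 2.00, adjusted p = 0.462) in the KO males, where miR-322-5p was lower, and by 2.29 (SE 2.16, adjusted p = 0.763) in the KO females. miR-322-3p, the other arm of the same hairpin as miR-322-5p, differed by 0.68 (SE 0.72, adjusted p = 0.656) in the KO males. The 2 arms of the Mir322 hairpin thus had opposite signs in that table, with neither called. miR-103-3p, whose seed overlaps that of the family by a shift of 1 base, was 9278, 8151, 8587 and 8001 after FA and 7718, 4091, 5768 and 5554 after O3 in the KO males. These mice did not overlap, with a log2 difference of -0.59 (SE 0.32, adjusted p = 0.380).

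The next question was whether the response to O3 differed between sexes or between genotypes. The difference of 2 within-table responses does not depend on the scale of a table, and was tested for males against females in each genotype and for each pair of genotypes in each sex, 9 comparisons over the 206 shared miRNAs. The comparisons between genotypes share mice, since each table enters several of them. Called miRNAs were 0.485% for SP-A2 minus co-ex in males and 0.00% in each of the other 8, and none of the 27 tests of miR-15a-5p, miR-15b-5p and miR-16-5p passed by limma. At an unadjusted p under 0.05, 3 of the 27 passed, all of miR-15a-5p in co-ex mice, where 4.85%, 5.34% and 6.31% of all miRNAs did. Its response in co-ex males minus that in co-ex females was -6.63 (SE 2.30, adjusted p = 0.645). In females, the co-ex response minus the KO response was 5.05 (SE 2.21, adjusted p = 0.625), and the SP-A2 response minus the co-ex response was -4.55 (SE 2.21, adjusted p = 0.728). The sex difference in co-ex mice rests on few mice: without O3 replicate 2 of the males it was -9.04 (adjusted p = 0.0402), and without the 3 mice above 30% erythroid reads, of which that mouse is 1, in a fit that called 0.971% of all miRNAs, -10.1 (adjusted p = 0.00375). How many of all miRNAs were called with only O3 replicate 2 of the males left out is not given here. Over all alternatives the adjusted p of this sex difference ran from 0.00375 to 0.995.

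Levels were also compared between genotypes and between sexes after the same exposure. The tables were normalized separately, so these levels rest on reads recovered from the values of each mouse and scaled together with TMM to CPM (reads scaled to a common library total) over the 206 shared miRNAs. Each genotype and sex is 1 table, so the table cannot be told apart from the genotype or the sex. Called miRNAs after FA were 2.91% for SP-A2 minus KO, 10.2% for co-ex minus KO and 41.7% for SP-A2 minus co-ex. After O3 they were 0.00%, 0.971% and 14.6%. Of 36 tests of the 3 shared members, 3 passed by limma, each for SP-A2 against co-ex mice, a contrast in which many miRNAs passed.

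miR-15a-5p after FA was 1852, 476 and 1583 CPM in the SP-A2 males and 383, 1169.5, 657 and 325 CPM in the SP-A2 females. It was 296, 50.9, 10.4 and 667 CPM in the co-ex males and 0, 246, 70.6 and 5.27 CPM in the co-ex females. Every SP-A2 mouse was above 300 CPM, while 7 of 8 co-ex mice were below that. The KO males had 595, 534, 596 and 303 CPM and the KO females 281, 409, 4.90 and 561 CPM. On log2(CPM + 1), miR-15a-5p was higher in SP-A2 than in co-ex mice after FA by 4.18 (SE 1.17, 95% confidence interval 1.82 to 6.53, adjusted p = 0.00488), and its co-ex minus KO difference was -2.59 (SE 1.12, adjusted p = 0.158). The order after FA was SP-A2, KO, co-ex, in which the neighbours did not differ at the threshold. After O3 the SP-A2 minus co-ex difference was 2.54 (SE 1.21, adjusted p = 0.201).

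miR-16-5p after FA was 12939.8, 10177 and 11138 CPM in the SP-A2 males and 6844, 7973, 7623 and 7249.8 CPM in the SP-A2 females, against 3814, 6242, 6697 and 3945 CPM in the co-ex males and 1281, 4630.4, 3482 and 1509 CPM in the co-ex females. All 7 SP-A2 mice were above all 8 co-ex mice, in a contrast where 41.7% of all miRNAs were called. The difference on log2(CPM + 1) was 1.42 (SE 0.46, 95% confidence interval 0.50 to 2.34, adjusted p = 0.0124), and the mean of the KO mice lay between them. SP-A2 minus KO was 0.43 (SE 0.46, adjusted p = 0.722) and co-ex minus KO -0.98 (SE 0.44, adjusted p = 0.166). After O3 the values were 16721, 29501 and 5282 CPM in the SP-A2 males, 4409, 7234, 5159 and 3341 CPM in the SP-A2 females, 9439.9, 3609.9 and 1027 CPM in the co-ex males and 12408, 1557, 953 and 7606 CPM in the co-ex females. These overlapped, and the difference of 1.28 (SE 0.47, adjusted p = 0.0870) passed the threshold narrowly. It was lost in edgeR (0.86, adjusted p = 0.341), without the 3 mice above 30% erythroid reads (1.15, adjusted p = 0.183) and without any of 9 single mice, while the 2 FA calls kept their side of the threshold in each of 20 alternatives. The adjusted p of the FA calls ran from 0.00164 to 0.0624 for miR-15a-5p and from 0.00762 to 0.0352 for miR-16-5p.

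miR-15b-5p did not share this order. Its SP-A2 minus co-ex difference was -0.37 (SE 0.48, adjusted p = 0.573) after FA and -0.64 (SE 0.50, adjusted p = 0.467) after O3. Macrophage markers moved with the genotype contrast: after FA they took 22.8 to 24.5% of listed reads in the SP-A2 males and 10.3 to 18.1% in the SP-A2 females, against 1.00 to 6.88% in the co-ex males and 4.16 to 13.6% in the co-ex females. Erythroid markers took 0.674 to 3.46% and 0.767 to 2.17% in the SP-A2 males and females and 3.10 to 36.3% and 0.258 to 12.3% in the co-ex males and females. The part of these markers in the level differences was not tested, apart from the fits without the 3 mice above 30% erythroid reads, in which the FA differences were 3.60 for miR-15a-5p and 1.39 for miR-16-5p. Those fits called 5 of the 36 tests, and 44.2% of all miRNAs for SP-A2 minus co-ex after FA, 11.2% for the same after O3, 17.0% for co-ex minus KO after FA and 0.485% for co-ex males minus females after O3.

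**Figure D4:**
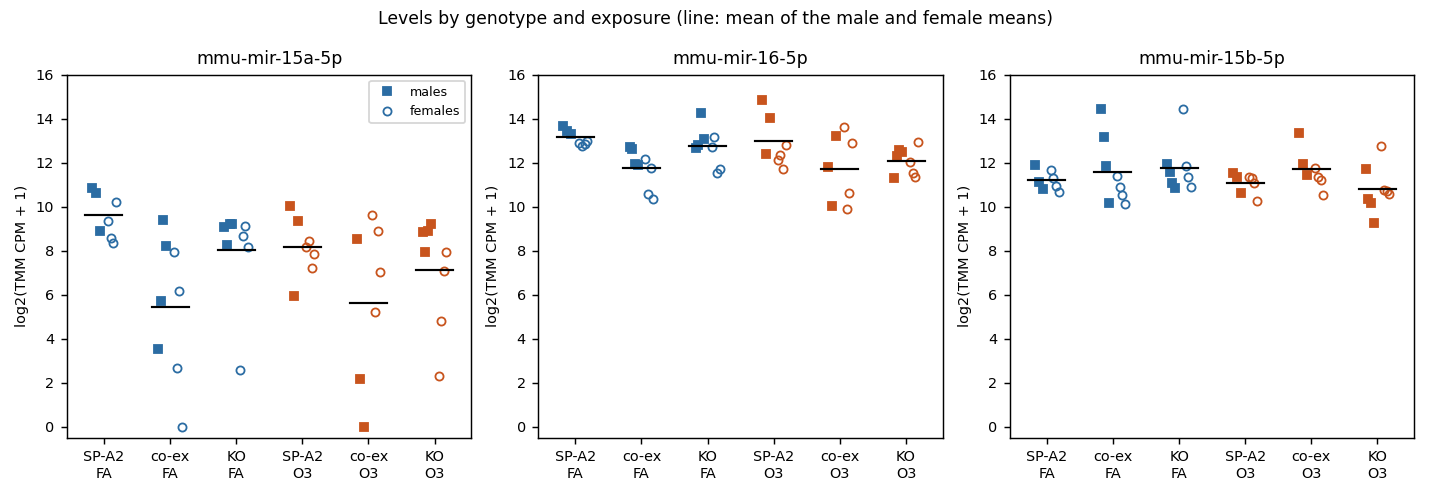
Level of miR-15a-5p, miR-16-5p and miR-15b-5p in each mouse as log2(TMM CPM + 1) (y axis) by genotype and exposure (x axis), with males as filled squares, females as open circles and the mean of the male and female means as a line. After FA, all 7 SP-A2 mice were above all 8 co-ex mice for miR-16-5p, and miR-15b-5p showed no such order. SP-A2 minus co-ex after FA called 41.7% of all miRNAs by limma.

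Males and females of the same genotype and exposure were compared in the same fit. Called miRNAs were 1.46% for co-ex mice after FA, 1.46% for KO mice after O3 and 0.00% in the other 4 contrasts, and none of the 18 tests of the members passed by limma. At an unadjusted p under 0.05, 3 of the 18 passed, in contrasts where 15.0%, 7.28% and 5.34% of all miRNAs did. miR-15b-5p was higher in co-ex males than females after FA by 1.66 (SE 0.66, adjusted p = 0.206). miR-16-5p was higher in SP-A2 males than females after O3 by 1.51 (SE 0.67, adjusted p = 0.615). miR-15a-5p in co-ex mice after O3 differed by -4.13 (SE 1.71, adjusted p = 0.804) between males and females. The value of miR-15b-5p moved with single mice in either direction: without FA replicate 3, the co-ex male with 36.3% erythroid reads, it was 0.95 (adjusted p = 0.463) and in the fit without all 3 mice above 30% 0.85 (adjusted p = 0.434), while without FA replicate 1 of the co-ex males the adjusted p was 0.0247 (difference 2.40), and without FA replicate 4 it was 0.0906 (difference 2.02). How many of all miRNAs passed in the fits without 1 mouse is not given here.

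A ratio of members within a mouse does not depend on any normalization. miR-15a-5p was 14.3%, 4.68% and 14.2% of miR-16-5p in the SP-A2 males after FA and 3.86%, 3.54% and 1.13% after O3. The exposures did not overlap, and the geometric mean was 9.84% against 2.49%, but 3 mice against 3 cannot go below p = 0.1, the value of the two-sided exact permutation test. miR-195a-5p in the same mice was 0.207%, 0.172% and 0.460% of miR-16-5p after FA and 1.97%, 0.484% and 0.537% after O3. Here too the exposures did not overlap, with the higher values after O3 and the same exact permutation p of 0.1. Adjusted over the 20 ratios tested within tables, p was 0.615 for both. The other 18 overlapped between exposures. Over the tables, 6 ratios were tested by permuting the exposures within tables, and none passed after adjustment over the 6. The lowest p was for miR-322-5p over miR-16-5p, with a mean log2 difference of -1.02 in 2 tables with 14 mice (permutation p = 0.0359, adjusted p = 0.215). miR-15b-5p over miR-16-5p, measured in all 45 mice, differed by -0.02 (permutation p = 0.958). miR-15a-5p over miR-16-5p differed by -0.23 in 37 mice of 5 tables, with mice at 0 left out (permutation p = 0.698). The co-ex males are not among these 5 tables, since fewer than 3 of their O3 mice had both members above 0.

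Whether members of a shared seed or cluster varied together between mice of a group was tested for the 3 pairs of members listed in all tables, and no correlation passed (FDR 0.1). On log2(normalized value + 1) with group means removed, over 45 mice, Pearson's r was -0.31 for miR-15a-5p with miR-15b-5p (permutation p = 0.121, adjusted 0.364), 0.19 for miR-15a-5p with miR-16-5p (permutation p = 0.389, adjusted 0.583) and 0.02 for miR-15b-5p with miR-16-5p (permutation p = 0.868, adjusted 0.868). Spearman's rho was -0.20, 0.23 and 0.03 in the same order (permutation p = 0.268, 0.231 and 0.858). Without the 2 mice farthest from the median of the first-named member, r was -0.29, 0.27 and -0.07. Within single tables r ran from -0.89 to 0.43 for the first pair, from -0.36 to 0.92 for the second and from -0.65 to 0.33 for the third. The highest was that of miR-15a-5p with miR-16-5p in the 6 SP-A2 males, and the lowest that of miR-15a-5p with miR-15b-5p in the 8 KO females, of which 1 had over 30% erythroid reads. The mice of a table share a normalization.

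Each member had other miRNAs whose variation between mice of a group was most like its own, by Pearson's r over the mice in which it was listed and among the 206 shared miRNAs. These are descriptions with no test. For miR-16-5p they were let-7g-5p (r = 0.88), let-7f-5p (r = 0.84) and let-7i-5p (r = 0.80), over 45 mice. For miR-15b-5p they were miR-92a-3p (r = 0.75), miR-324-3p (r = 0.65) and miR-486b-5p (r = 0.64), the last an erythroid marker. The values for miR-15a-5p were lower, with miR-3470b (r = 0.52), miR-146b-3p (r = 0.51) and miR-29c-3p (r = 0.50). Over 22 mice, miR-195a-5p was most like miR-132-3p (r = 0.73), miR-27a-3p (r = 0.72) and miR-26a-5p (r = 0.72), and miR-16-2-3p like miR-361-5p (r = 0.67), miR-1264-3p (r = 0.63) and miR-34a-5p (r = 0.63). miR-322-5p, over 38 mice, was most like miR-223-3p (r = 0.68), a macrophage and neutrophil marker, miR-24-3p (r = 0.65) and miR-26b-5p (r = 0.61). Its r with miR-322-3p from the same hairpin was 0.44, with miR-503-5p 0.30, and with miR-351-5p from the same X-linked cluster -0.69, the lowest of the 206.

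miR-15b-5p was highest where erythroid markers were highest. The 3 mice with the largest erythroid share of all 45 had the 3 highest miR-15b-5p levels in TMM-scaled CPM. The third place depends on that scaling: without TMM, FA replicate 2 of the co-ex males (7148 CPM) stood above O3 replicate 2 of the co-ex males (6285 CPM). In FA replicate 3 of the KO females an erythroid share of 37.0% went with 22109 CPM of miR-15b-5p. In FA replicate 3 of the co-ex males a share of 36.3% went with 21842 CPM, and in O3 replicate 2 of the co-ex males a share of 35.8% went with 10439 CPM. The same 3 mice stood at 20, 19 and 33 of 45 for miR-16-5p and at 41, 39 and 20 of 45 for miR-15a-5p, so the rank of miR-15b-5p was not shared by the other members. Their macrophage markers took 0.986%, 1.00% and 1.30% of listed reads. The mouse ranked next for miR-15b-5p, FA replicate 2 of the co-ex males with 9198 CPM, stood at 16 of 45 for the erythroid share, with 7.52%. The part of red cells in these values was not tested.

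**Figure D5:**
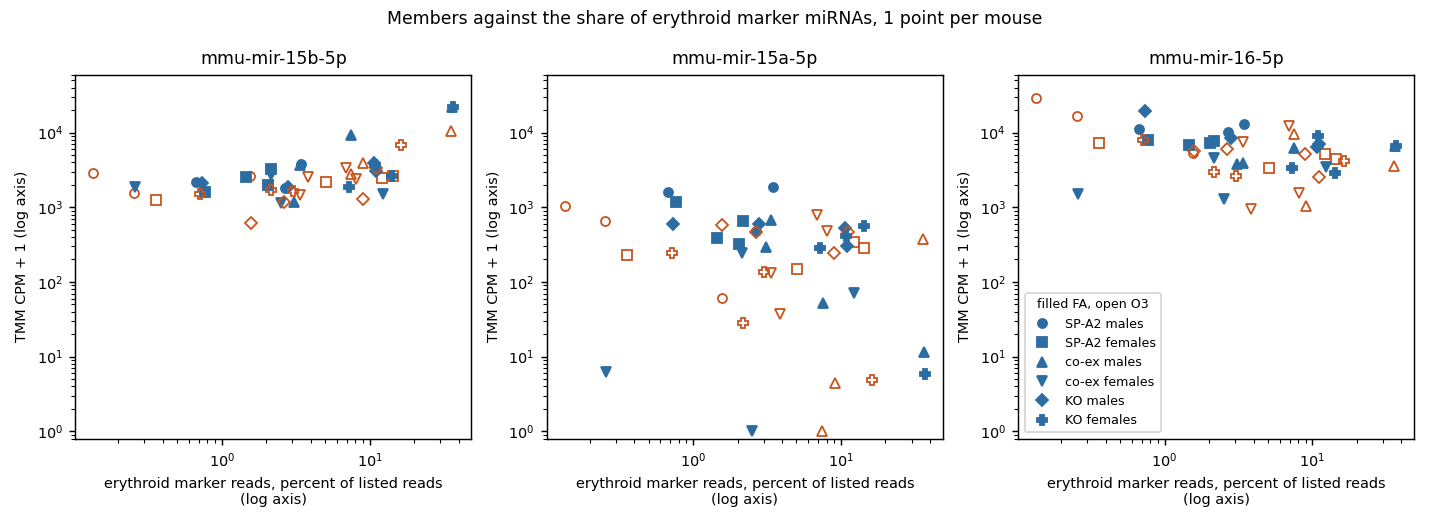
Level of miR-15b-5p, miR-15a-5p and miR-16-5p (TMM CPM + 1, log y axis) against the share of erythroid marker reads (percent of listed reads, log x axis), 1 point per mouse, with the marker shape for genotype and sex, FA filled and O3 open. The 3 mice with erythroid shares of 35.8% to 37.0% had the 3 highest TMM-scaled levels of miR-15b-5p, from 10439 to 22109 CPM, and not of the other 2 members.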

How the data were processed

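AM were collected from 45 mice and small RNA was sequenced (NEXTflex small RNA kit v3, Illumina HiSeq, 50 cycles). The authors deposited 1 table for each genotype and sex, listing miRNAs above 0 in at least 3 or 4 mice. Its normalized values (a signal unit) are, as deposited, whole reads of a mature miRNA divided by a factor of the mouse; the normalization was made separately for each table. The submitters' notes name CASAVA and edgeR, and the table names mention DESeq2; aligner, build and miRNA annotation are not given in the sources used here. The deposited p-value, q-value and rank columns hold the authors' own comparison of FA with O3 and were not used. The kept columns all belonged to labelled samples.

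O3 was compared with FA by limma 3.58.1 (R 4.3.3, trend) on log2(value + 1) over all miRNAs of a table, and over tables with 1 mean per group, at a false discovery rate of 0.1. Reads were recovered as whole multiples of the value of 1 read in each mouse (100% of values whole within 1e-06), and carried the levels (log2(CPM + 1), TMM) and the edgeR 4.0.16 and DESeq2 1.42.0 alternatives. Only 8 of the 45 mice had enough low values to test the recovery strictly, so in the other 37 the reads could be off by a constant factor, which TMM and ratios do not see. On these reads edgeR called 5 and 2 miRNAs in the male and female SP-A2 tables, 0 and 0 in the co-ex tables and 16 and 0 in the KO tables. Ratios and correlations were tested by permutation (scipy 1.17.1). The text names the 6 members, the listed miRNAs of their loci and of the same or a related seed, and the 3 miRNAs most like each member. The members were a fixed list of names with no threshold on values, but they and the other lists were chosen with earlier results of these data known. The models were tested on simulated data. Alternatives were the pseudocount, a filter on values under 10, median-ratio rescaling, a false discovery rate of 0.05, edgeR, DESeq2, a replicate block, leaving out each mouse, and, chosen after the data were seen, leaving out the 3 mice above 30% erythroid reads and averaging members over the tables that list them. No 2 libraries of a group were identical (63 pairs, Spearman's rho 0.626 to 0.907). The methods name 3 co-ex males per exposure and the labels list 4 after FA, and the labels were followed.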

Additional observations from a re-analysis of the deposited data

Results flagged for a closer look

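In groups of 4 mice, 9 of 71 values tested (43 groups of a member and 28 of a ratio) stood apart from the other 3 mice by a gap above the 95% critical value of the test of Dixon. Chance passes it in about 1 group in 20 where values are normally distributed. The 43 member groups were tested without a log and hold skewed values and zeros, so that rate need not hold for them. miR-15b-5p was 17943 in FA replicate 3 of the KO females, with the others at 1432 to 2547, and 5456 in O3 replicate 4 of the KO females, with the others at 1301 to 1525. In the former mouse miR-15a-5p was 0.0222% of miR-15b-5p, with the others at 11.2% to 21.5%. These 2 mice had erythroid marker shares of 37.0% and 16.2%, ranked 1 and 4 of all 45. miR-16-5p was 15086 in FA replicate 1 of the KO males (others 5449 to 5974), and miR-195a-5p in the same mouse was 24.5 with the others at 0. miR-195a-5p was 3.26 in FA replicate 2 of the co-ex females, with the others at 0. miR-16-2-3p was 64.8 in FA replicate 2 of the SP-A2 females (others 0 to 10.6). miR-322-5p was 142 in O3 replicate 2 of the SP-A2 females (others 23.0 to 26.5) and 299 in O3 replicate 1 of the KO females (others 0 to 8.24). The 3 mice other than replicate 2 in that SP-A2 female group lay below all 4 FA mice, so the overlap of miR-322-5p in that table rested on this mouse. It also had the highest macrophage marker share of that group, 15.85%, and the lowest erythroid share, 0.360%.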

How the results depend on the processing

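Of 430 values recomputed under an alternative other than leaving out a mouse, 396 kept their direction and side of the threshold, as did 1716 of 1807 with a mouse left out. Among the 29 within-table tests DESeq2 called 1 (miR-195a-5p in the SP-A2 males, 2.46), and 0 to 2 were called with a mouse left out. For fits with a mouse left out, the share called among all miRNAs is not given here. Their calls are therefore not read as particular to the members. Without the 3 mice above 30% erythroid reads, chosen after the data were seen, 2 of the 18 tests over tables were called (miR-15a-5p over all groups and over males, where the same fits called 25.7% and 10.2% of all miRNAs), 1 of the 27 differences in response and 5 of the 36 level tests (with a mouse left out, 0 to 1 and 2 to 5). The level calls gained were of miR-15a-5p: co-ex minus KO after FA -2.66, SP-A2 minus co-ex after O3 3.71 and co-ex males minus females after O3 -6.59. Among ratios, 1 was called with all mice and a pseudocount of 1 (miR-195a-5p over miR-16-5p, 3.09, adjusted permutation p = 0.0063), and 0 to 1 with a mouse left out. With the pseudocount, the ratio of miR-195a-5p also takes in the co-ex females and KO males, which list it mainly through their O3 mice. That call is not independent of the listing filter and is given as a description. Besides the mice named with their results, 1 mouse decided a call for miR-15a-5p co-ex minus KO after FA (-3.21 without FA replicate 2 of the co-ex females and without FA replicate 3 of the KO females), miR-16-5p in the same contrast (-1.15 without FA replicate 2 of the co-ex females), miR-15a-5p SP-A2 minus co-ex after O3 (3.20 without O3 replicate 3 of the SP-A2 males, 3.83 without O3 replicate 2 of the co-ex males) and miR-322-5p over miR-16-5p (-1.27 without O3 replicate 2 of the SP-A2 females). The cause of these changes was not tested, beyond the fewer mice of each fit.

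The fits over the tables that list a member share those tables and their listing filter, so their alternatives say nothing of it. Directions that turned belonged to values not called. With median-ratio rescaling miR-15b-5p was -0.040 in the SP-A2 males and -0.0098 in the SP-A2 females and miR-15a-5p -0.071 in the KO males, and with a pseudocount of 10 miR-16-2-3p was -0.24 in the SP-A2 females. In edgeR and DESeq2 respectively, miR-15b-5p was -0.094 and -0.075 and miR-322-5p 0.065 and 0.095 in the SP-A2 males, miR-16-2-3p -1.34 and -1.40 in the SP-A2 females and -0.38 and -0.26 over its tables, miR-322-5p -1.22 and -1.17 in the co-ex females and 0.37 and 0.64 in the KO females, and miR-15a-5p -0.25 and -0.031 in the KO males. DESeq2 alone turned miR-16-5p to 0.081 in the co-ex males and 0.069 over all groups. Without the 3 mice, miR-15b-5p was 0.21 in the co-ex males and 0.044 over all groups. By medians, miR-15b-5p over miR-16-5p was -0.48 in the KO males and 0.037 over all tables, and with all mice and a pseudocount of 1 miR-16-2-3p over miR-16-5p was 0.75. Rescaling moved the median of all miRNAs in the KO males from -0.29 to -0.50.

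With a mouse left out, these values crossed 0. In the SP-A2 males miR-15b-5p ran from -0.21 to 0.34, miR-16-5p from -0.15 to 1.07, miR-16-2-3p from -1.70 to 0.031 and miR-322-5p from -0.71 to 0.67. In the SP-A2 females miR-15b-5p ran from -0.10 to 0.39 and miR-16-2-3p from -0.62 to 1.39, and in the co-ex males miR-15b-5p from -0.65 to 0.65 and miR-16-5p from -1.31 to 0.32. miR-322-5p ran from -0.50 to 2.31 in the co-ex females and from -2.08 to 0.99 in the KO females, miR-15a-5p from -0.017 to 0.46 in the KO males and miR-16-5p from -0.60 to 0.052 in the KO females. Over all groups miR-15b-5p ran from -0.23 to 0.0038 and miR-16-5p from -0.25 to 0.024. The log2 ratio of miR-15b-5p to miR-16-5p ran from -1.17 to 0.034 in the SP-A2 males, -0.23 to 1.61 in the co-ex males, -0.74 to 0.53 in the co-ex females, -0.69 to 0.52 in the KO males, -1.12 to 0.0089 in the KO females and -0.15 to 0.17 over all tables, and that of miR-15a-5p to miR-15b-5p from -3.07 to 0.96 in the KO females and -0.61 to 0.19 over all tables.

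Counts over all miRNAs depended on the tool: with males before females and SP-A2 before co-ex before KO, limma called 3, 4, 0, 4, 17 and 0, and DESeq2 54, 26, 5, 14, 41 and 2. With the replicate number as a block, limma called 1, 0, 0, 5, 24 and 2, and 0 of the 29 member tests. The labels tie the numbers to no litter or day, and of 22 same-numbered pairs 6 had deviations correlated above 0.1 (r from -0.138 to 0.271), so the numbers were not taken as a pairing. Groups of 3 or 4 mice and listed zeros limit the low members most.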
